A study of Mus musculus with 31 samples.

Results

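The comparison asked how the effect of ERRα3SA in skeletal muscle differed from its effect in liver. It took, gene by gene, the log2 difference between ERRα3SA and wild-type muscle minus the log2 difference between ERRα3SA and wild-type liver, called the interaction in this text. It used 16 of the 31 samples of the series: 4 livers and 4 muscles of wild-type mice, and 4 livers and 4 muscles of ERRα3SA mice. All were C57BL/6N mice on a normal diet with no treatment, and in the mutant the 3 serines of ERRα targeted by GSK3β and FBXW7 are replaced by alanine in the whole animal. The study's methods give male littermates of 2 to 3 months unless stated otherwise, and gastrocnemius and soleus as the muscles taken. Of 54532 genes counted, 13339 passed the expression filter in liver and 14081 in muscle, and the 11843 that passed in both were tested.

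ERRα is an orphan nuclear receptor that, with the coactivators PGC-1α and PGC-1β, turns on genes of the respiratory chain, the citric acid cycle and fat oxidation. Muscle fibres and hepatocytes use this program differently: muscle burns fuel for contraction, while liver also makes glucose and lipid. Phosphorylation by GSK3β marks ERRα for destruction through the ubiquitin ligase FBXW7, and insulin holds GSK3β back. The alanine form cannot be marked in this way.

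Library totals ran from 20481405 reads in ERRα3SA liver replicate 4 to 33412022 in wild-type liver replicate 1. The tissue labels held against marker genes. All 10 hepatocyte markers passed 1 CPM (counts scaled to library size) in each liver, where they summed to between 75620 and 119700 CPM, with Alb the most abundant at 38340 to 79110. In muscle the same list summed to between 10.36 and 22.15 CPM, with Cyp2e1 the most abundant, 1 to 6 of the 10 genes at 0, and Alb at most at 1.19. The 10 myofibre markers summed to between 109500 and 226600 CPM in muscle, led by Myh4 at 34020 to 111900. In liver they summed to 13.9 in wild-type replicate 1, to 14.9 in ERRα3SA replicate 3 and to at most 1.45 in the other livers, with 1 to 8 of the 10 genes at 0. The study's methods count each n of an animal experiment as 1 mouse, but which livers and muscles shared a mouse, if any, is not stated. In bulk tissue, fewer cells of a type and less RNA per cell cannot be told apart.

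Muscle ERRα3SA replicate 1 stood apart from all other libraries. Mitochondrial transcripts made up 19.3% of its reads against 9.15 to 9.85% in the other ERRα3SA muscles and 10.04 to 10.8% in wild-type muscle. It had 16984 detected genes against 20237 to 20878 in the other ERRα3SA muscles and 19794 to 20242 in wild-type muscle. Its TMM factor was 0.745 against 1.04 to 1.19 and 1.01 to 1.06. The lowest values in liver were 18543 genes and a factor of 0.946. Its median correlation with its own group was 0.928. For this reason the counts over all genes are given with all 16 libraries and again without this one. Replicate 4 of both ERRα3SA groups also stood apart, in other genes. In muscle replicate 4, the leukocyte markers summed to 299.6 CPM against 52.4 to 59.3 in the other ERRα3SA muscles and 64.7 to 80.1 in wild-type muscle, with Lyz2 most abundant at 228. The immediate early and heat shock genes summed to 2193 CPM in this library against 661 to 886 in the other muscles, with Hspb1 most abundant at 741. Liver ERRα3SA replicate 4 had a median correlation of 0.976 with its own group against 0.987 to 0.991 in the other livers, and Alb at 38340 CPM. The part of these libraries in the results was not tested beyond leaving them out.

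Esrra itself (ENSMUSG00000024955, chromosome 19, 6910977 to 6921813 of GRCm38), whose product carries the mutation, read 26.6, 26.03, 27.1 and 28.3 CPM in wild-type liver and 28.3, 24.4, 20.2 and 18.5 in ERRα3SA liver. It read 93.4, 85.8, 69.4 and 80.8 in wild-type muscle and 26.1, 137, 131 and 97.8 in ERRα3SA muscle. Replicates 2 to 4 of ERRα3SA muscle lay above every wild-type muscle, replicate 1 lay below all of them at 26.1, and the liver groups overlapped. With all 16 libraries the log2 fold change was -0.24 in liver and 0.28 in muscle, and the interaction of 0.49 (standard error 0.46) had a p of 0.297 in edgeR's quasi-likelihood test. Without muscle replicate 1 the muscle change was 0.60 (standard error 0.12) and the interaction 0.81, with an adjusted p of 0.028 in edgeR's test with Benjamini-Hochberg adjustment. The mutation alters the protein and its stability, so the mRNA level is no measure of how much receptor these tissues held. Its promoter window is shown because ERRα is known to act on its own gene: chr19:6921759-6922058, minus strand, 250 bases before to 50 after the RefSeq start, GRCm38.p6. It has no match to the ERR core motif AAGGTCA on either strand, which says only that these letters are not in this window.
Esrra: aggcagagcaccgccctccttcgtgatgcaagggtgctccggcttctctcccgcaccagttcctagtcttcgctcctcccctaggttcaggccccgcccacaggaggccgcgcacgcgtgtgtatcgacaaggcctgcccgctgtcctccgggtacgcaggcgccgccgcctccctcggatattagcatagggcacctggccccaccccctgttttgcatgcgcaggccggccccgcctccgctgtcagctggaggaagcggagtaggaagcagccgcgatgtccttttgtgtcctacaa

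A gene was called in a tissue when its unadjusted p was under 0.05 and it changed at least 1.2 fold, the study's own threshold. Over the genes tested in both tissues, 289 were called higher in ERRα3SA liver (2.44%) and 258 lower (2.18%). In muscle 339 were called higher (2.86%) and 149 lower (1.26%). No gene passed an adjusted p of 0.05 for the interaction with edgeR's quasi-likelihood test. At an unadjusted p under 0.05 there were 659, of which 647 also differed by at least 1.2 fold: 380 with the muscle effect above the liver effect (3.21%) and 267 with it below (2.25%). At an adjusted p under 0.05, limma-voom with sample weights found 1232 over the same genes. DESeq2 found 31 by its own default adjustment, which can leave genes out. The smallest adjusted p with edgeR was 0.0655, for mt-Tl2.

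Without muscle ERRα3SA replicate 1, 11940 genes were tested in both tissues and the muscle groups separated far more. Muscle then had 1327 genes called higher (11.1%) and 821 lower (6.88%), while 292 and 260 were called in liver over this gene set. The interaction had 1182 genes above (9.90%) and 1311 below (10.98%) by the p and fold rule. At an adjusted p under 0.05 it had 285 above (2.39%) and 291 below (2.44%), 576 in all. With length and GC offsets it was 60, of which 49 were shared, and leaving out wild-type muscle replicate 3 as well it was 191. Between the liver and muscle effects, which share no samples, Pearson r was 0.0804 over 11843 genes with all libraries and -0.0207 over 11940 without replicate 1. Spearman's rank correlation was 0.0145 and -0.156, and with length and GC offsets the Pearson and Spearman values without replicate 1 were 0.0724 and -0.0348.

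Genes called in both tissues were few. With all libraries 16 were higher in both, 6 lower in both, 14 higher in muscle and lower in liver, and 3 the reverse. The 16 were 5.54% of the genes called higher in liver and 4.72% of those called higher in muscle, against 2.86% and 2.44% of all genes tested. The 14 were 5.43% of the genes called lower in liver and 4.13% of those called higher in muscle, against 2.86% and 2.18%. The 6 were 2.33% of the genes called lower in liver and the 3 were 1.04% of those called higher, against 1.26% of all genes called lower in muscle. Without replicate 1 the numbers were 33, 12, 67 and 21. The 33 genes higher in both were then 11.3% of the genes called higher in liver, close to the 11.1% of all genes called higher in muscle. The 67 higher in muscle and lower in liver were 25.8% of the genes called lower in liver, against the same 11.1%. With length and GC offsets the 67 became 20, with 19 shared. The offsets also took the genes called higher in muscle from 1486 to 869, over all genes tested in that tissue. Those called lower in liver went from 318 to 238. The 12 were 4.62% of the genes called lower in liver and the 21 were 7.19% of those called higher, against 6.88% of all genes called lower in muscle.

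**Figure D1:**
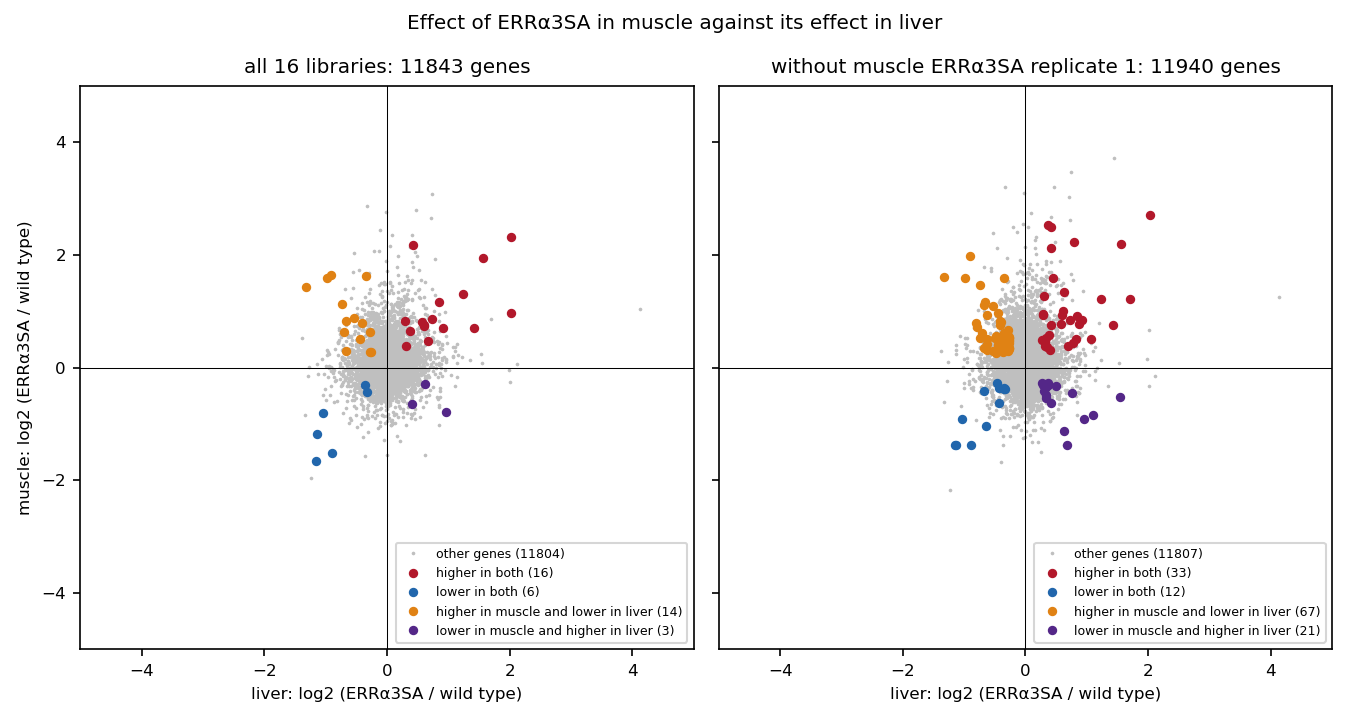
Log2 fold change of ERRα3SA over wild type in muscle (vertical) against liver (horizontal), 1 point per gene tested in both tissues, with all 16 libraries (left, 11843 genes) and without muscle ERRα3SA replicate 1 (right, 11940 genes); colours mark the genes called in both tissues. Leaving out the library took the genes higher in muscle and lower in liver from 14 to 67, or to 20 with length and GC offsets.

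Interferons act on most cell types, through receptors that switch on transcription factors, the IRF family among them, and the target genes encode antiviral proteins. A signal that reaches the whole animal and a change within each tissue cannot be told apart here. Of the 16 genes higher in both tissues, 5 were on a list of 65 interferon-stimulated genes, of which 59 were among the 11843 genes tested: Cmpk2, Ifi44, Irf7, Oasl2 and Rsad2. Without replicate 1 it was 9 of 33, with 61 of the list among 11940 genes. With all libraries 43 of the 289 genes called higher in liver were on this list. Both counts are therefore in part set by the liver calls. The liver rise of this list is known from the study, so what is added here is which members moved in muscle too.

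Irf7 (ENSMUSG00000025498, chromosome 7, 141262706 to 141266481), the transcription factor that amplifies type I interferon responses, read 50.8, 31.8, 61.3 and 41.5 CPM in wild-type liver and 180.1, 155, 60.4 and 40.7 in ERRα3SA liver. Its muscle values were 3.82, 1.72, 3.18 and 2.69 in wild type and 8.45, 8.99, 3.58 and 6.88 in ERRα3SA. The liver rise sat in replicates 1 and 2, while replicates 3 and 4 lay within the wild-type range. In muscle replicates 1, 2 and 4 lay above all wild-type samples. The log2 fold changes were 1.23 (standard error 0.43, p 0.0173) in liver and 1.30 (standard error 0.33, p 0.00288) in muscle, and the interaction was 0.04 (p 0.943). Leaving out liver ERRα3SA replicate 1 or 2 took the gene off the list. Its promoter window (chr7:141266375-141266674, minus strand, GRCm38.p6) is shown because Irf7 is induced by interferon, yet the core of the interferon-stimulated response element, GAAANNGAAA, has no match in it on either strand.
Irf7: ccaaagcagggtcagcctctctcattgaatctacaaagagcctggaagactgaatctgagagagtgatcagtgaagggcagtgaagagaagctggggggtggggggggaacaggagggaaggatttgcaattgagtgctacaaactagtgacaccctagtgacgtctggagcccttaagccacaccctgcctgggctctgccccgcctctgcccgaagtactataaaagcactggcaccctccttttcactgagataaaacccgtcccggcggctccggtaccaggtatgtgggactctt

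Rsad2 (ENSMUSG00000020641, chromosome 12, 26442746 to 26456452), which encodes the antiviral enzyme viperin, read 18.2, 11.2, 26.9 and 12.2 CPM in wild-type liver and 36.1, 43.4, 28.1 and 15.5 in ERRα3SA liver. Its muscle values were 2.62, 2.95, 3.38 and 3.12 in wild type and 10.6, 6.67, 4.45 and 5.39 in ERRα3SA. All 4 ERRα3SA muscles lay above all 4 wild-type muscles, whereas in liver the groups overlapped. It rose by 0.85 (standard error 0.34, p 0.0321) in liver and 1.17 (standard error 0.26, p 0.00128) in muscle on the log2 scale, and the interaction was 0.30. Cmpk2, its neighbour on chromosome 12, moved with it at log2 fold changes of 0.68 and 0.46, but kept its place in only 5 of 16 fits that left out 1 library, against 11 of 16 for Rsad2. The Rsad2 window (chr12:26456403-26456702, minus strand, GRCm38.p6, from RefSeq) carries GAAANNGAAA, in capitals on the reverse strand 120 bases before the start, a motif found in 3.44% of all 32851 promoters. A match is a description and does not show binding.
Rsad2: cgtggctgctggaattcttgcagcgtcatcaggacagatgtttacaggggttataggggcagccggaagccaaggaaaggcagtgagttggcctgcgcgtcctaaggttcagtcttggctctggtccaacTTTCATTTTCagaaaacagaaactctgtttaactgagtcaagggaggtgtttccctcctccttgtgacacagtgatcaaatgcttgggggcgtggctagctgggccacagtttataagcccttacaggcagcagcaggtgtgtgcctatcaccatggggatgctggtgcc

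Oasl2, a 2′-5′ oligoadenylate synthetase-like gene, read 5.14, 4.65, 4.37 and 4.68 CPM in wild-type and 22.3, 15.6, 6.74 and 5.84 in ERRα3SA liver, where all 4 mutants lay above all 4 controls. The muscles gave 2.91, 2.87, 4.12 and 3.08 in wild type and 4.83, 4.90, 3.61 and 7.31 in ERRα3SA, where replicate 3 lay among the controls. Its log2 fold changes were 1.42 and 0.69. Ifi44 rose by 2.01 in liver and 0.97 in muscle, and in both tissues by more in replicates 1 and 2 than in replicates 3 and 4. It read 44.9, 34.9, 10.2 and 5.61 CPM in ERRα3SA liver and 3.98, 2.49, 1.44 and 1.69 in ERRα3SA muscle, against at most 10.1 and 1.58 in wild type. Without muscle replicate 1 its muscle change was 0.66 with an unadjusted p of 0.0784, and it left the list.

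Not all genes higher in both were on the interferon-stimulated list, which need not hold every gene that interferon induces. Lhx6, a homeobox transcription factor, read 1.53, 1.64, 1.53 and 1.38 CPM in wild-type muscle and 2.90, 3.30, 2.51 and 2.18 in ERRα3SA muscle, with no overlap. In liver it read 2.11, 3.43, 2.19 and 3.35 in wild type and 3.21, 5.80, 5.79 and 3.43 in ERRα3SA, with overlap, and the log2 fold changes were 0.73 (standard error 0.26, p 0.0195) and 0.85 (standard error 0.21, p 0.00235). Ly6a, the surface protein Sca-1 of endothelial and stem cells, read 24.8, 16.1, 6.97 and 7.78 CPM in ERRα3SA liver against 6.56 to 7.83 in wild type. In muscle its values were 28.2, 33.4, 31.7 and 61.01 against 21.9 to 25.8, and it rose by 0.92 and 0.70. Ly6a lost its class without liver ERRα3SA replicate 1 or 2, or without wild-type liver replicate 1 or 2. Mt1, the zinc-binding metallothionein that glucocorticoids and metals induce, was called higher in both, in muscle through replicate 4. It read 4.39, 5.12, 5.28 and 40.9 CPM in ERRα3SA liver and 6.04, 6.57, 7.22 and 141 in ERRα3SA muscle, and it lost its class without muscle replicate 4, without wild-type liver replicate 3 or without any 1 of the wild-type muscles. Hmox1, which breaks down haem and is a gene the study names in liver, joined without muscle replicate 1, and its muscle values of 2.48, 5.89, 4.48 and 68.6 CPM show that 1 library carried it.

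The 6 genes lower in both were Krt19, Cd9, Crip3, Akap8l, Gm47283 and AC149090.1. Krt19, a keratin of bile duct cells in liver, read 2.17, 1.91, 2.68 and 1.89 CPM in wild-type and 1.09, 0.680, 1.32 and 0.834 in ERRα3SA liver, with no overlap. In muscle, at low level, it read 1.67, 1.07, 0.432 and 1.15 in wild type and 0.724, 0.409, 0.401 and 0.397 in ERRα3SA, and the log2 fold changes were -1.14 (standard error 0.24, p 0.000929) and -1.18 (standard error 0.43, p 0.0213). Cd9, a membrane tetraspanin, read 15.4, 14.9, 14.8 and 19.1 CPM in wild-type and 9.87, 12.5, 14.6 and 13.9 in ERRα3SA liver. Its muscle values were 31.2, 23.1, 28.1 and 24.6 in wild type and 17.8, 17.6, 20.7 and 21.6 in ERRα3SA. The groups did not overlap in either tissue, and Cd9 fell by 0.33 in liver (p 0.0336) and by 0.44 in muscle (p 0.0119). Crip3, a small LIM-domain gene, changed by -1.15 and -1.65, and Akap8l, a nuclear scaffold gene, by -0.35 and -0.31.

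AC149090.1 (ENSMUSG00000095041, on the unplaced scaffold JH584304.1) was singled out after its values were seen, since it had the smallest p of the genes lower in both. It read 82.4, 104, 97.05 and 110.1 CPM in wild-type and 51.6, 58.97, 43.99 and 56.2 in ERRα3SA liver. In muscle it read 16.1, 17.3, 16.5 and 19.9 in wild type and 4.41, 6.84, 4.95 and 7.71 in ERRα3SA, so that neither tissue had any overlap. The log2 fold changes were -0.90 (standard error 0.11, p 1.49e-05) and -1.51 (standard error 0.20, p 2.78e-05), and the interaction was -0.63, with an unadjusted p of 0.0106 that did not pass adjustment with or without replicate 1. It kept its class in all 16 fits that left out 1 library. Genes on unplaced scaffolds can share reads with copies elsewhere in the genome, so which locus these reads came from is uncertain.

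Of the genes changed alike, 13 of 16 higher in both and 5 of 6 lower in both kept their class without muscle replicate 1, and others joined. Trim25, a ubiquitin ligase of the RIG-I antiviral pathway, read 104, 96.6, 100.4 and 98.5 CPM in wild-type and 123, 132, 113 and 114 in ERRα3SA liver, with no overlap. Its muscle values were 10.99, 14.2, 15.2 and 13.5 in wild type and 14.2, 17.4, 15.3 and 21.9 in ERRα3SA, and replicates 2 to 4 lay above all controls. It rose by 0.27 in liver and 0.48 in muscle without replicate 1. Pdcd4, an inhibitor of translation, read 16.2, 14.5, 17.7 and 16.1 CPM in wild-type and 24.02, 12.5, 13.5 and 10.5 in ERRα3SA muscle, where replicate 1 was above and the rest below all controls. It changed by -0.35 in liver and -0.37 in muscle. Bcl6b, a repressor found in endothelium, changed by -0.64 and -1.04, with its lowest muscle value, 1.62, in replicate 4.

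**Figure D2:**
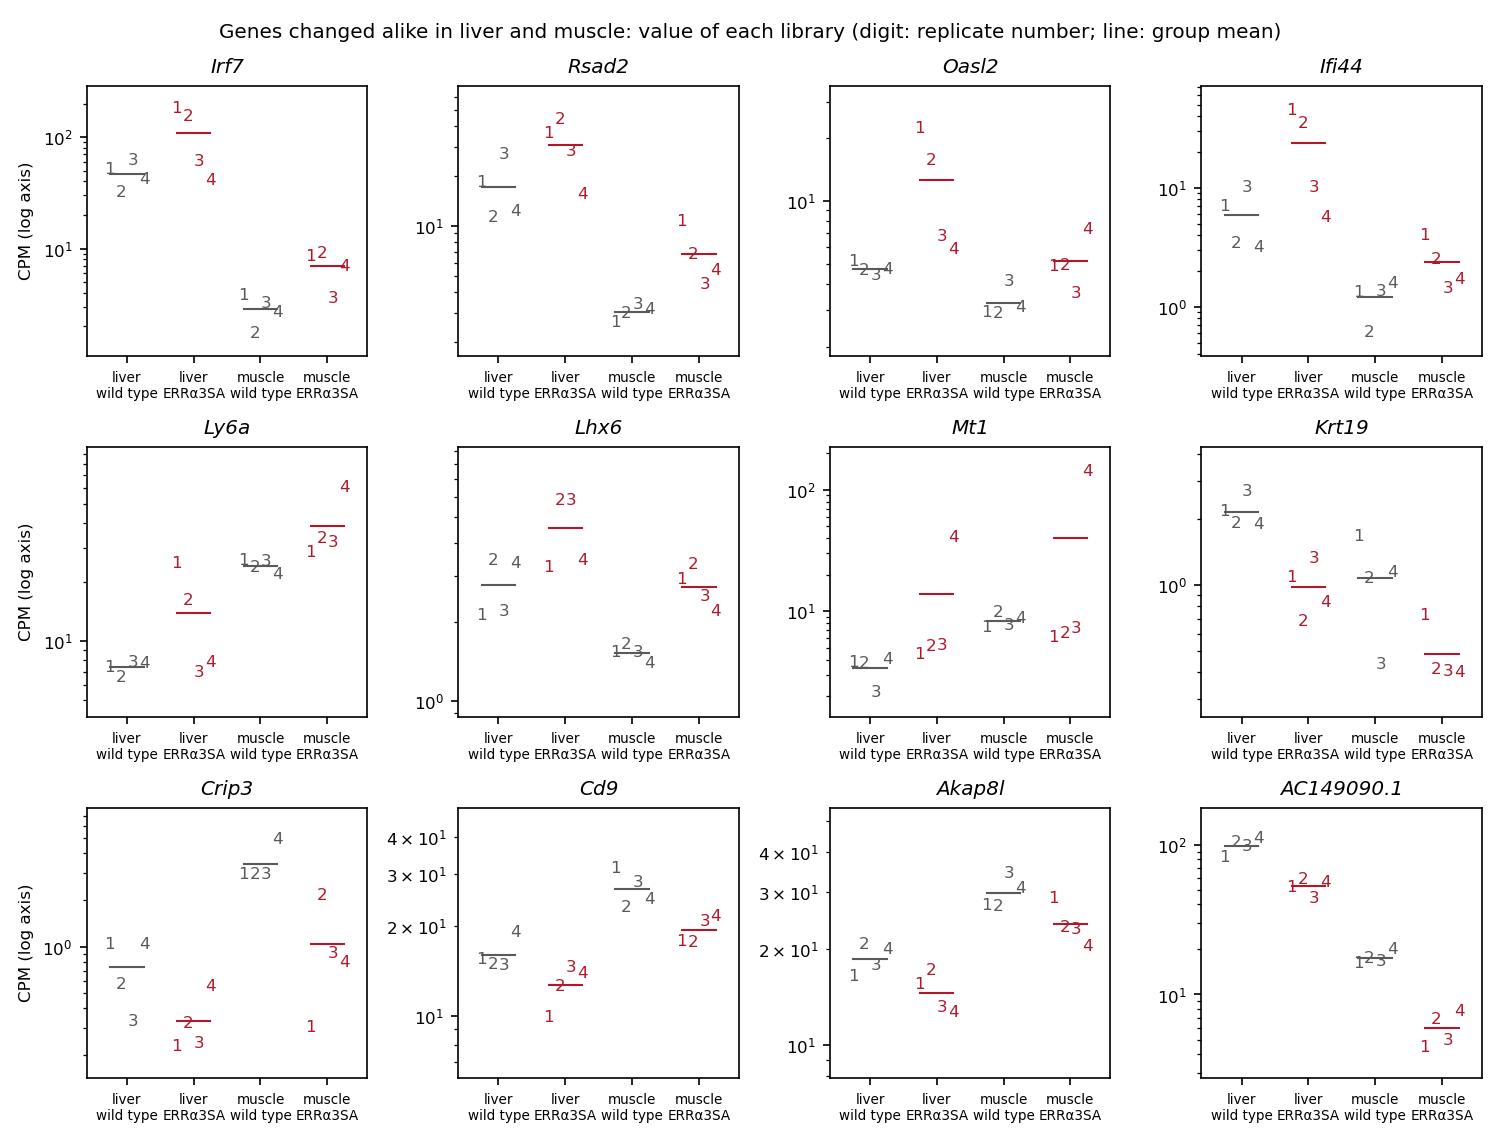
CPM of 12 genes in each library on a log axis, by tissue and genotype, with the digit giving the replicate number and the line the group mean. In muscle Mt1 rests on ERRα3SA replicate 4, at 141 CPM, while AC149090.1 is lower in all ERRα3SA libraries of both tissues.

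Gbp6 and Igtp, both interferon-inducible GTPases, were higher in liver and lower in muscle. The guanylate-binding proteins (Gbp genes) and the immunity-related GTPases (Igtp, the Irgm and Tgtp genes) attack the vacuoles of intracellular microbes, and answer interferon-γ as well as type I interferon. Gbp6 (ENSMUSG00000104713, chromosome 5, 105270702 to 105293698) read 6.94, 4.27, 6.31 and 4.59 CPM in wild-type and 14.3, 11.97, 8.67 and 8.11 in ERRα3SA liver. The muscles gave 5.75, 9.27, 6.68 and 7.75 in wild type and 5.67, 4.50, 3.27 and 3.57 in ERRα3SA. In liver every ERRα3SA sample was above every wild-type sample, and in muscle every ERRα3SA sample was below. The log2 fold changes were 0.96 (standard error 0.22, p 0.00143) in liver and -0.78 (standard error 0.22, p 0.00525) in muscle. Its interaction was -1.76 (standard error 0.33, p 6.31e-05) with all libraries and -1.92 without replicate 1, where the adjusted p was 0.00811 in edgeR's test with Benjamini-Hochberg adjustment. It kept its class in all 16 fits that left out 1 library, though Gbp genes are near-identical copies and reads shared among them make the exact member uncertain.

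Gbp10, close to it on chromosome 5, read 33.3, 29.9, 13.00 and 11.3 CPM in ERRα3SA liver against 6.57 to 15.01 in wild type. Muscle values were 3.31, 4.47, 5.30 and 4.43 in wild type and 7.06, 2.35, 2.74 and 1.99 in ERRα3SA, where replicates 2 to 4 were below all controls and replicate 1 above. Its interaction was -1.47 with all libraries and -2.0 without replicate 1 (adjusted p 0.0447). Igtp (ENSMUSG00000078853, chromosome 11, 58199556 to 58207591) read 38.2, 21.9, 45.02 and 23.96 CPM in wild-type and 55.1, 54.6, 48.7 and 39.7 in ERRα3SA liver. In muscle it read 9.54, 9.80, 9.23 and 10.04 in wild type and 7.54, 7.76, 7.32 and 8.57 in ERRα3SA, where the groups did not overlap. It rose by 0.62 in liver and fell by 0.29 in muscle, with an interaction of -0.92 (standard error 0.27, p 0.0031). The muscle fall was small: it met the 1.2 fold rule with all libraries, but not without replicate 1, where it fell by 0.25. Igtp kept its class in 8 of 16 fits that left out 1 library, and lost it without any 1 of the wild-type muscles, of ERRα3SA muscle replicates 1 to 3, or without wild-type liver replicate 4. Irgm1, Irgm2 and Tgtp1 rose in liver and had muscle changes of 0.07, -0.09 and -0.36, with interactions of -0.47, -0.48 and -1.25. The Igtp window (chr11:58199306-58199605, plus strand, GRCm38.p6, from RefSeq) is shown beside that of Rsad2, since it carries the same motif, 34 bases before the start, and yet the gene moved the other way in muscle.
Igtp: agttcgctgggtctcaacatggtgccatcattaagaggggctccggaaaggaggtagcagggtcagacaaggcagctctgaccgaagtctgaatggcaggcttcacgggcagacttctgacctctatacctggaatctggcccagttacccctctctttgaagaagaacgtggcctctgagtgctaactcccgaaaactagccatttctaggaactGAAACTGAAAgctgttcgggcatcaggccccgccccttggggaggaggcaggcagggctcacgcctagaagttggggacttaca

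Over the 59 interferon-stimulated genes tested, 43 were called higher in liver, against 2.44% of all genes, and 0 lower. In muscle 6 were called higher, against 2.86%, and 2 lower, against 1.26%, with a median log2 fold change of 0.219 against 0.488 in liver and 0.03 and 0.002 for all genes. The muscle median was 0.134 without both replicates 4. Without replicate 1 it was 0.251, and 0.071 without both replicates 4 as well. Muscle ERRα3SA replicate 4 is the library with leukocyte markers at 299.6 CPM, and their part in the muscle rise was not tested. For the interaction 0 were called above and 6 below, against 2.25%, with a median of -0.242 against 0.009 for all genes. Without replicate 1 it was 2 above and 19 below of 61, against 9.90% and 10.98%, with a median of -0.365 against -0.011, and 2 passed the adjusted p, Gbp6 and Gbp10. The median of the interaction stayed negative in every alternative fit. Without both replicates 4, 12 were called below, against 311 of all 11969 genes, and without replicate 1 as well 24, against 1320 of 12070. With length and GC offsets it was 8 below, against 371 of 11835, and without replicate 1, 11, against 1075 of 11932. This list was chosen with the liver result known, so its rise in liver is no independent evidence. The interaction subtracts the liver effect, so its negative median and its calls below are in part set by the same choice. Summed CPM of the list was 369, 338, 359 and 369 in wild-type muscle and 462, 394, 332 and 446 in ERRα3SA muscle, and 2136, 1779, 2520 and 1906 in wild-type and 3468, 3432, 2356 and 2626 in ERRα3SA liver. The muscle groups overlapped on this sum, and in liver the lowest ERRα3SA sample, replicate 3 at 2356, lay below the highest wild-type sample.

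The 14 genes higher in muscle and lower in liver included the mitochondrial transfer RNA genes mt-Tl2 and mt-Te. mt-Tl2 (ENSMUSG00000064366), a leucine tRNA of the mitochondrial genome, read 8.66, 9.49, 8.82 and 6.57 CPM in wild-type and 4.71, 4.26, 2.83 and 1.53 in ERRα3SA liver. Its muscle values were 3.17, 2.95, 4.36 and 3.95 in wild type and 6.04, 11.2, 13.1 and 8.01 in ERRα3SA. No groups overlapped, the log2 fold changes were -1.33 (standard error 0.28, p 0.000941) and 1.43 (standard error 0.26, p 0.000323), and the interaction of 2.74 (standard error 0.41, p 5.53e-06) had the smallest p of all genes. mt-Te, a glutamate tRNA, changed by -0.68 in liver and 0.83 in muscle. mt-Tc, a cysteine tRNA, went the other way: it read 11.1, 11.3, 17.3 and 10.2 CPM in wild-type liver, 18.2, 15.4, 16.2 and 16.4 in ERRα3SA liver, 44.9, 39.4, 48.8 and 53.5 in wild-type muscle and 29.3, 27.7, 35.1 and 25.4 in ERRα3SA muscle. Its log2 fold changes were 0.41 and -0.65, and it lost its class without liver ERRα3SA replicate 1 or without wild-type liver replicate 1, 2 or 4. The mitochondrial genome is read as long transcripts that are processed at the tRNAs, tRNAs are shorter than the fragments these libraries keep, and their reads overlap those of neighbouring genes, so these counts are uncertain as measures of the tRNAs.

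Nuclear genes on this list included Naa38, Got1, Limd2 and Abracl. Naa38, a subunit of the amino-terminal acetyltransferase NatC, read 14.1, 13.5, 13.03 and 14.2 CPM in wild-type and 12.9, 11.3, 9.42 and 7.37 in ERRα3SA liver. The muscles gave 5.39, 8.53, 7.58 and 9.45 in wild type and 12.9, 13.5, 13.4 and 12.8 in ERRα3SA, with no overlap in either tissue. The log2 fold changes were -0.42 (standard error 0.15, p 0.0199) and 0.79 (standard error 0.17, p 0.0013), and the interaction was 1.19 (standard error 0.24, p 0.000137). Limd2, a LIM-domain signalling gene, changed by -0.43 and 0.51, and Abracl, an actin regulator, by -0.35 and 1.63 at no more than 2.71 CPM in any muscle. Rpl22l1, a paralogue of a ribosomal protein gene, changed by -0.74 and 1.13. Of the ribosomal protein genes, Rpl12 read 148, 130.2, 119 and 103 CPM in ERRα3SA liver against 146 to 154 in wild type, and 136, 160.1, 156 and 156 in ERRα3SA muscle against 121 to 137. It met the fold rule narrowly and kept its class in only 5 of 16 fits that left out 1 library.

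Got1 (ENSMUSG00000025190, chromosome 19, 43499752 to 43524605) encodes cytosolic aspartate aminotransferase of the malate-aspartate shuttle, which carries reducing power into mitochondria, and in liver also feeds glucose production from aspartate. It is on the list of known ERR targets. It read 355, 314, 356 and 366 CPM in wild-type and 189, 247, 306 and 128 in ERRα3SA liver. Muscle values were 314, 318, 298 and 298 in wild type and 330.2, 394, 402 and 351 in ERRα3SA. The ERRα3SA livers were all below and the ERRα3SA muscles all above their controls, with log2 fold changes of -0.68 (standard error 0.22, p 0.0123) and 0.29 (standard error 0.11, p 0.0291). The interaction was 0.94 with all libraries and 0.99 without replicate 1, with an adjusted p of 0.042 in edgeR's test with Benjamini-Hochberg adjustment. The lowest liver value, 128, came from replicate 4. With all libraries Got1 lost its class without ERRα3SA muscle replicate 2 or 3, or without wild-type muscle replicate 1, 3 or 4. The Got1 window (chr19:43524556-43524855, minus strand, GRCm38.p6, from RefSeq) carries the ERR core motif AAGGTCA, in capitals 245 bases before the start, a motif found in 4.72% of all promoters.
Got1: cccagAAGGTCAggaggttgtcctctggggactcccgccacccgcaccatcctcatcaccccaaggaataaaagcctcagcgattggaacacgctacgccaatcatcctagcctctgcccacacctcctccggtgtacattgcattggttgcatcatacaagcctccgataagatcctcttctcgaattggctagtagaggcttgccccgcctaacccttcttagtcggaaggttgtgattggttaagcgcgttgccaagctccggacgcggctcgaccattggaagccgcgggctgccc

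**Figure D3:**
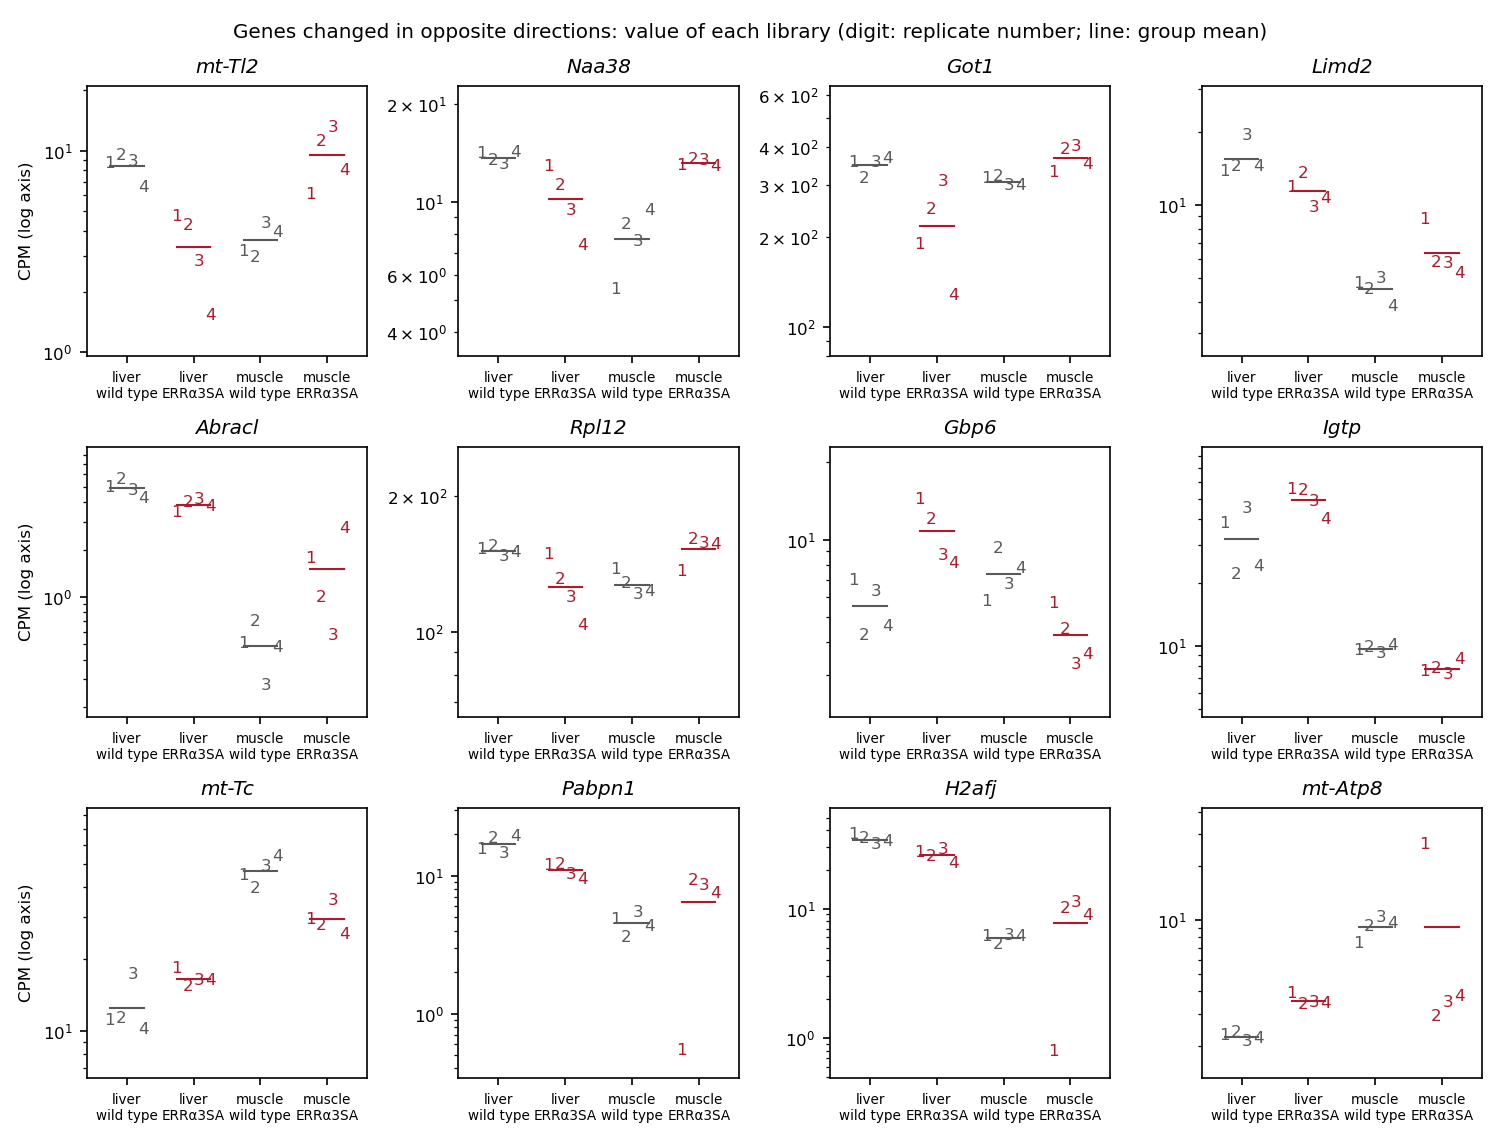
CPM of 12 genes in each library on a log axis, by tissue and genotype, with the digit giving the replicate number and the line the group mean. Gbp6 is higher in all ERRα3SA livers and lower in all ERRα3SA muscles, and Pabpn1, H2afj and mt-Atp8 show muscle ERRα3SA replicate 1, at 0.543, 0.785 and 26.2 CPM, on the far side of wild type from the other ERRα3SA muscles.

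Leaving out muscle ERRα3SA replicate 1 brought in genes for which that library went against its group. H2afj, a histone H2A variant, read 6.08, 5.29, 6.17 and 6.05 CPM in wild-type muscle and 0.785, 10.1, 11.2 and 8.90 in ERRα3SA muscle. In liver it read 37.3, 34.6, 31.4 and 32.7 in wild type and 26.9, 25.3, 28.6 and 22.2 in ERRα3SA, with no overlap. Its interaction was 1.17 without replicate 1 (standard error 0.14, adjusted p 0.00173), and 0.82 (standard error 0.55) with it. Pabpn1, a nuclear poly(A)-binding protein, followed the same pattern with an interaction of 1.52. G6pc3, the glucose-6-phosphatase that most tissues share, fell by 0.63 in liver and rose by 0.32 in muscle, with an interaction of 0.91 (adjusted p 0.00691). Tmem37, a calcium channel-like subunit, did not move in liver at 0.01 and had an interaction of 1.12. Cox11, an assembly factor of cytochrome oxidase, had 1.13.

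In the other direction mt-Atp8, the mitochondrial gene for a small ATP synthase subunit, had the smallest p. It read 2.26, 2.36, 2.10 and 2.19 CPM in wild-type and 3.89, 3.40, 3.48 and 3.43 in ERRα3SA liver. In muscle it read 7.35, 9.19, 10.4 and 9.49 in wild type and 26.2, 2.90, 3.48 and 3.77 in ERRα3SA, where replicate 1 was far above and replicates 2 to 4 far below the controls. Without replicate 1 the log2 fold change was 0.67 in liver and -1.38 in muscle, and the interaction -2.10 (adjusted p 0.000179). It overlaps mt-Atp6 on the mitochondrial genome, which makes the count uncertain. Zfp979, a zinc-finger gene, read 0.489, 0.534, 0.577 and 0.386 CPM in wild-type and 1.81, 1.22, 1.70 and 1.11 in ERRα3SA liver, with no overlap. Its interaction was -2.10. Nmi, an interferon-inducible gene, read 5.61, 6.52, 6.32 and 6.41 CPM in wild-type muscle and 17.1, 3.92, 4.31 and 4.24 in ERRα3SA muscle, with an interaction of -0.91. The others named here were Akap13 at -0.64, Agtpbp1 at -0.67, Exoc4 at -0.56, Zfr at -0.65, Tpr at -0.73, Ckap5 at -0.72 and Ccar1 at -0.67. In Tpr, a nuclear pore protein, muscle replicate 1 read 297 CPM against 128 to 151 in wild type, and replicates 2 to 4 read 98.8, 104 and 90.1.

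Beyond the genes called in both tissues, the smallest p-values for the interaction with all libraries came mostly from genes called in muscle alone. Ndufa1 (ENSMUSG00000016427), an X-linked subunit of complex I, read 39.5, 38.8, 37.9 and 36.6 CPM in wild-type muscle and 59.8, 81.4, 81.5 and 67.7 in ERRα3SA muscle, with no overlap and all 4 mutants above. In liver it read 52.5, 48.6, 44.4 and 48.00 in wild type and 47.6, 48.3, 37.6 and 28.03 in ERRα3SA, with overlap. The muscle change was 0.95 (standard error 0.13, p 3.08e-05) and the interaction 1.19 (standard error 0.21, p 3.14e-05). Stub1, a chaperone-linked ubiquitin ligase, read 33.2, 30.8, 30.8 and 31.9 CPM in wild-type and 38.9, 40.5, 39.9 and 38.8 in ERRα3SA muscle, and had an interaction of 0.54. Rpl39, Rps27a and Rpl11, all ribosomal protein genes, had interactions of 1.08, 0.69 and 1.02. Ribosomal protein genes have many processed copies in the genome, and their counts are uncertain to that extent.

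Among genes with the muscle effect below the liver effect, Itih2, a plasma protein gene of hepatocytes, read 997 to 1144 CPM in liver, and 1.93, 3.28, 2.51 and 2.25 in wild-type against 0.966, 0.783, 1.04 and 1.22 in ERRα3SA muscle, with no overlap and an interaction of -1.26 (standard error 0.22, p 2.45e-05). Cxadr, the coxsackievirus receptor of epithelia, was at 1.13, 0.944, 1.14 and 1.46 CPM in wild-type and 0.422, 0.511, 0.501 and 0.794 in ERRα3SA muscle, with an interaction of -1.09. Trf, transferrin, which Schwann cells of nerve make as well as hepatocytes, had -0.78. Serping1, an inhibitor of complement C1 made by fibroblasts and liver, read 111, 102, 100.3 and 106 CPM in wild-type and 80.7, 71.1, 72.6 and 86.95 in ERRα3SA muscle, and had -0.71. Kank1, an adhesion gene, had -0.47. Zfp383, a zinc-finger gene, rose by 0.66 in liver with an interaction of -0.82. Over the 10 hepatocyte markers, 3 were tested in both tissues and 1 was called for the interaction, Trf, with a median of -0.346; without replicate 1 it was 2, with -0.566. Their sum in muscle was 19.8, 22.1, 21.4 and 15.2 CPM in wild type and 20.9, 11.8, 10.4 and 15.2 in ERRα3SA, and their part in the result was not tested.

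Markers of Schwann cells, which wrap the motor and sensory nerves in muscle, were lower in ERRα3SA muscle. Pmp22, a myelin protein, read 140.4, 108, 114 and 95.5 CPM in wild-type muscle and 68.4, 52.8, 63.1 and 70.6 in ERRα3SA muscle, with no overlap, and had an interaction of -0.98 (standard error 0.22, p 0.000393). Ncmap, another myelin gene, had an interaction of -1.27. All 8 genes of the list passed 1 CPM in every muscle, and their sums were 478, 357, 364 and 328 CPM in wild type and 156, 179, 221 and 240.3 in ERRα3SA. Of the 5 tested in both tissues, 4 were called lower in muscle (Mbp, Pmp22 and Ncmap among them), with a median of -0.802, and 2 were called below for the interaction, with a median of -0.447, against 1.26% and 2.25% of all genes. Without replicate 1 these were 4 and 3, with medians of -0.737 and -0.616, against 6.88% and 10.98%. Whether less nerve was in the pieces of muscle taken, or nerve held less of these transcripts, the counts do not tell, and their part in the result was not tested.

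The respiratory chain is the classic target of ERRα with PGC-1, and some of its nuclear genes were called with a muscle effect above the liver effect. Of 78 tested, 0 were called in liver, with a median of -0.054 against 0.002 for all genes. That liver median was 0.061 without both replicates 4 and 0.009 with length and GC offsets. Summed CPM in liver was 13430, 12290, 12300 and 12610 in wild type and 13090, 12970, 13710 and 9172 in ERRα3SA. In muscle 20 were called higher, against 2.86% of all genes, with a median of 0.224 against 0.03. The interaction had 19 called above, against 3.21% of all genes, and 0 below, with a median of 0.266 against 0.009. Without replicate 1 it had 35 above, against 9.90%, and 1 below, with 0.321 against -0.011 and 17 at an adjusted p under 0.05. The rise in muscle is known from the study. The interaction median stayed positive in every alternative fit, but with transcript length and GC offsets it was 0.161 with all libraries, with 12 called above and 3 below against 358 and 371 of all 11835 genes, and 0.134 without replicate 1, with 23 above and 10 below against 577 and 1075 of 11932. Summed CPM of the list was 21080, 22920, 20580 and 21880 in wild-type and 22880, 26380, 27330 and 22110 in ERRα3SA muscle, with overlap. Ndufs6, a complex I subunit, read 60.9, 70.3, 61.5 and 70.5 CPM in wild-type muscle and 126, 120.2, 119.6 and 94.9 in ERRα3SA muscle, with an interaction of 1.16, and Ndufa5 and Ndufb3 had 0.80 and 0.90. Atp5k, an ATP synthase subunit, read 42.9, 32.3, 18.9 and 33.5 CPM in wild-type and 16.7, 108, 101 and 96.2 in ERRα3SA muscle, so that replicate 1 again opposed its group.

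With all libraries the other mitochondrial lists had smaller medians, and 3.21% of all genes were called above, against 9.90% without replicate 1. Of 24 import genes 5 were called above, or 12 without replicate 1, with a median of 0.222 and 0.281. With length and GC offsets it was 3 above and 1 below, with 0.122, against 358 and 371 of all 11835 genes. With offsets and without replicate 1 it was 6 above and 1 below, with 0.103, against 577 and 1075 of 11932. The 5 were Tomm7, Timm10, Timm17a, Timm44 and Hspe1, a chaperonin of the matrix, the last at 0.73. Of 23 ERR target genes 4 were called above (Got1, Slc25a4, Cycs and Timm44), with a median of 0.184, and without replicate 1, 8 were, with 0.107. With length and GC offsets it was 3 above, with 0.022, and without replicate 1, 3 above, with 0.04, against the same counts over all genes. Slc25a4, the muscle form of the ATP carrier, had an interaction of 0.63, and Cycs, cytochrome c, 0.57. Of 23 fatty acid oxidation genes 2 were called above, Etfb at 1.48 and Acaa2 at 0.45, with a median of 0.07 that fell to -0.011 without both replicates 4, and without replicate 1, 4 were, with 0.107. None of 18 citric acid cycle genes was called with all libraries or without replicate 1, with medians of 0.116 and 0.11. Without both replicates 4, 2 were called above, against 444 of all 11969 genes, and without replicate 1 as well 4, against 1275 of 12070. With length and GC offsets the medians were 0.097 with all libraries and 0.037 without replicate 1, with 0 called. The 13 protein genes of the mitochondrial genome had a median of 0.195 with all libraries, -0.237 by limma-voom and -0.26 without replicate 1, so no direction is given for them. Of 14 ERR and PGC-1 regulators 0 were called with all libraries, with a median of 0.137, and 1 above and 1 below without replicate 1, with 0.037. Esrrg, the sister receptor, read 39.9, 38.3, 47.8 and 49.5 CPM in wild-type and 57.2, 31.9, 32.5 and 27.2 in ERRα3SA muscle, and Ppargc1a 39.2, 56.3, 48.00 and 43.05 in wild type and 64.2, 34.02, 43.6 and 28.8 in ERRα3SA, with replicate 1 highest in both. Without replicate 1 they changed in muscle by -0.48 and -0.36, against 0.60 for Esrra.

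Some ribosomal protein genes were called in this direction too. Of 37 tested, 2 were called lower in liver, against 2.18% of all genes, with a median of -0.138, and 9 higher in muscle, against 2.86%, with a median of 0.233. The interaction had 16 above, against 3.21%, and 0 below, with a median of 0.33, and without replicate 1, 23 above, against 9.90%, with 0.346 and 15 at an adjusted p under 0.05. With length and GC offsets the median was 0.231 with all libraries, with 11 above and 1 below, and 0.17 without replicate 1, with 10 above and 3 below, against the same counts over all genes as for the respiratory chain. Their summed CPM was 6536, 6604, 6340 and 6239 in wild-type and 7495, 7435, 7359 and 7188 in ERRα3SA muscle, with no overlap, and 8190, 7722, 7459 and 7815 in wild-type and 7725, 7506, 6951 and 6194 in ERRα3SA liver, with overlap. Respiratory chain and ribosomal protein genes have short transcripts in common.

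**Figure D4:**
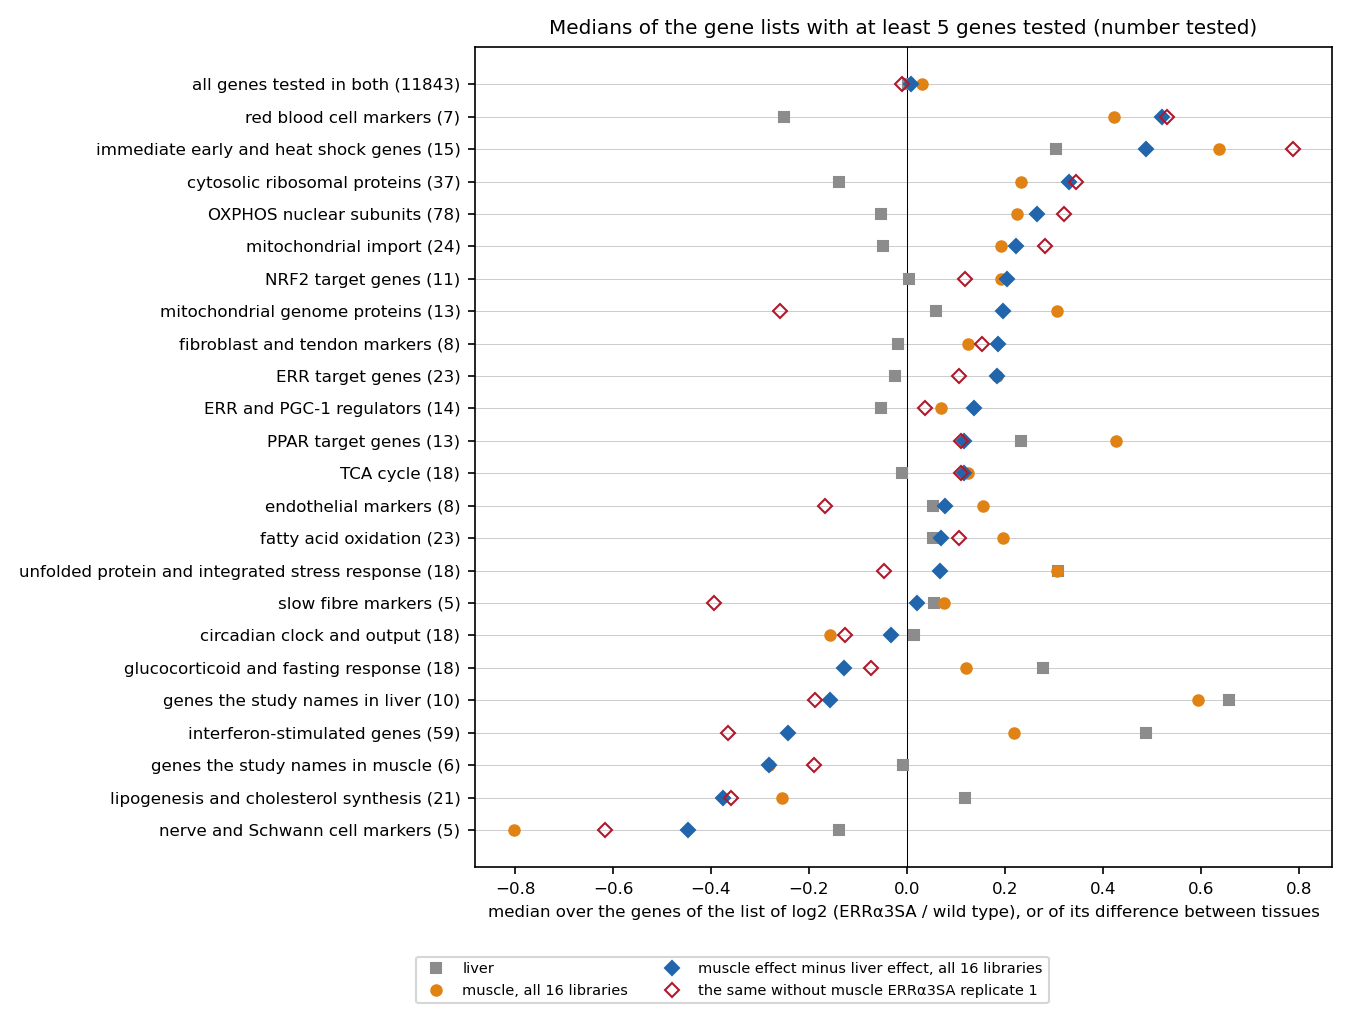
Median log2 fold change of each gene list in liver and muscle, and median of the muscle effect minus the liver effect with all 16 libraries and without muscle ERRα3SA replicate 1, for lists with at least 5 genes tested. The OXPHOS median of the difference was 0.266 and 0.321, and that of the mitochondrial genome proteins changed sign from 0.195 to -0.26.

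Transcript length went with the effect in both tissues, in opposite directions. Genes were split by transcript length into 5 groups of 2365 to 2370. The median interaction fell from 0.134 in the shortest group to -0.061 in the longest, and without replicate 1 from 0.175 to -0.168. In the shortest group 204 genes were called above and 31 below, and in the longest 23 above and 85 below. In liver the medians ran from -0.05 to 0.05, and in muscle from 0.102 to -0.003. Over 11835 genes the Spearman correlation of the interaction with length was -0.225, and without replicate 1 it was -0.306 with length and 0.47 with GC share. The libraries that stand apart did so here as well. The shortest and longest groups lay -0.168 and 0.228 from the wild-type mean in muscle ERRα3SA replicate 1, but 0.127 and -0.131 in replicate 2, and -0.163 and 0.122 in liver ERRα3SA replicate 4. A slope with length of this kind moves with RNA quality and with library preparation, which the labels do not give, and its part in the result was not tested beyond the fit with offsets. With offsets for length and GC, chosen after seeing the data, 60 genes passed an adjusted p under 0.05 without replicate 1 in place of 576, and 49 of the 60 were among the 576.

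**Figure D5:**
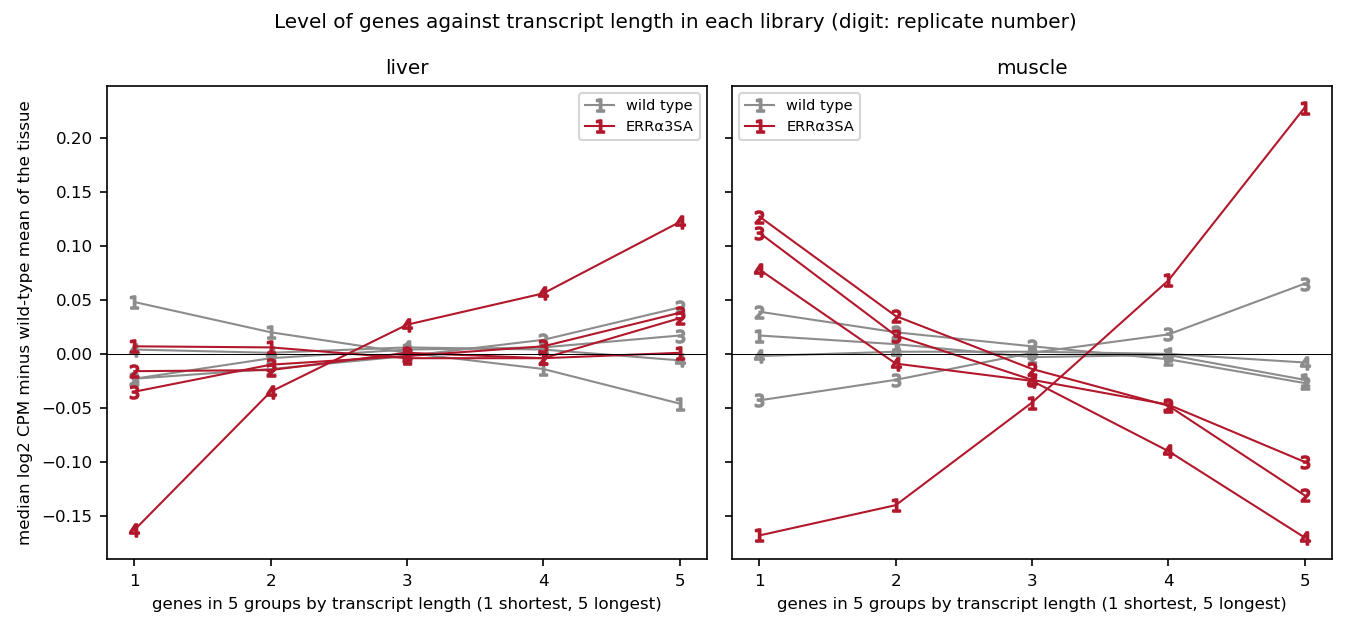
Median log2 CPM of genes relative to the wild-type mean of the tissue, in 5 groups by transcript length from shortest to longest, 1 line per library (digit: replicate number). Muscle ERRα3SA replicate 1 rises from -0.168 to 0.228 while replicates 2 to 4 fall, and liver ERRα3SA replicate 4 rises from -0.163 to 0.122.

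Length and GC offsets kept some of the classes and not others. Without replicate 1 the genes higher in muscle and lower in liver went from 67 to 20, of which 19 were shared. Those higher in both went from 33 to 29, with 24 shared, those lower in both from 12 to 15, with 10 shared, and the reverse class from 21 to 15, with 8 shared. With all libraries, 10 of 14 genes higher in muscle and lower in liver, 12 of 16 higher in both and 3 of 6 lower in both were kept. All 3 of the reverse class were kept: Gbp6, Igtp and mt-Tc. Leaving out replicate 4 of both ERRα3SA groups, also chosen after seeing the data, kept 9 of the 16 higher in both, 4 of the 6 lower in both, 6 of the 14 and the same 3. Without replicate 1 it kept 11 of 33 higher in both, 8 of 12 lower in both, 37 of 67 higher in muscle and lower in liver and 11 of 21 of the reverse class.

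Over all genes 3.21% were called above and 2.25% below for the interaction, and 9.90% and 10.98% without replicate 1. Without both replicates 4 it was 444 above and 311 below of 11969 genes, and without replicate 1 as well 1275 and 1320 of 12070. Of 21 lipogenesis and cholesterol synthesis genes 1 was called below for the interaction, but 0 lay above a log2 difference of 0, and the median was -0.375 and negative in every fit. Without replicate 1, 2 were called below and 2 lay above 0, with a median of -0.359. Without both replicates 4 this list had 4 called below, with -0.396, and without replicate 1 as well 8, with -0.499. Its summed CPM was 26760, 20890, 17430 and 25400 in wild-type and 18700, 24270, 47130 and 4819 in ERRα3SA liver, and 1960, 1978, 1919 and 1810 in wild-type and 1988, 1589, 1722 and 1023 in ERRα3SA muscle, with ERRα3SA replicate 4 lowest in both tissues and liver ERRα3SA replicate 3 highest. Of 18 glucocorticoid and fasting genes 0 were called, with a median of -0.128, and 1 below without replicate 1, with -0.074. Without both replicates 4 it was 1 above and 3 below, with -0.364, and without replicate 1 as well 1 above and 5 below, with -0.242. In liver 5 of them were called higher, against 2.44% of all genes: Fkbp5, Zbtb16, Cdkn1a, Mt1 and Pdk4. Of 13 PPAR targets 0 were called, with a median of 0.116 that was -0.037 by limma-voom and -0.428 without both replicates 4, and 1 below without replicate 1, with 0.111, or -0.197 without both replicates 4 as well. The 18 clock genes (-0.032) had 0 called, as had the 18 genes of the unfolded protein response (0.068, but -0.187 by limma-voom), and without replicate 1 the clock had 1 below (-0.127) and the unfolded protein response 1 above (-0.046). The 11 NRF2 targets (0.204, but -0.036 by limma-voom) had 0 called too, and 2 above without replicate 1 (0.118). Of 15 immediate early and heat shock genes 1 was called, Atf3 at 2.53. Its muscle ERRα3SA values of 6.70, 5.14, 14.97 and 93.9 CPM rest on replicate 4, and the list's median of 0.487 became -0.203 without both replicates 4 and 0.788 without replicate 1, where 2 were called above.

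Other cell types were read through markers, whose counts stand against the same 3.21% above and 2.25% below over all genes, or 9.90% and 10.98% without replicate 1. Of 4 leukocyte markers tested 0 were called, with a median of 0.532 that became -0.421 without both replicates 4, and without replicate 1, 0 were, with 0.729. Without replicate 1 and both replicates 4, 3 were called below, with -0.53, against 1320 of all 12070 genes. Of 7 red blood cell markers 2 were called above, Hbb-bt at 1.28 and Hba-a2 at 1.07, both near-identical to sister genes, with a list median of 0.521, and without replicate 1 it was 1, with 0.53. Without both replicates 4 these were 0 called with 0.212. Of 8 endothelial markers only Cdh5 was called, at -0.35, with a list median of 0.077 that became -0.167 without replicate 1, where 1 was called above and 1 below. Of 8 fibroblast and tendon markers 0 were called, with a median of 0.186 that was -0.012 by limma-voom, and 1 below without replicate 1 (0.154), while their sum in muscle ERRα3SA replicate 4 was 4287 CPM against 1678 to 2392 in the rest of its group. Of 4 adipocyte markers 0 were called, with a median of -0.508 that was -0.528 without replicate 1, where again 0 were, and Car3, which hepatocytes and myofibres express too, made up most of their sum in every library. Of 5 slow fibre markers 0 were called, with a median of 0.021, and without replicate 1, 1 was called above and 1 below, with -0.394. The 1 myofibre marker and 1 fast fibre marker tested were not called with or without replicate 1. The slow fibre sum was 4160, 4290, 3810 and 4390 CPM in wild-type and 6373, 2803, 3519 and 4040 in ERRα3SA muscle. Their part in the result was not tested.

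The study names genes in each tissue for their change there, so their liver or muscle change is no independent evidence. The interaction holds that change, so it is in part set by the same choice. Over all genes tested in both, 2.44% were called higher in liver and 2.86% in muscle, or 11.1% in muscle without replicate 1. For the interaction it was 3.21% above and 2.25% below, and 9.90% and 10.98% without replicate 1. Of 13 named in liver 10 were tested in both tissues: 9 were called higher in liver, 2 of these in muscle as well (Irf7 and Rsad2), and 1 was called for the interaction, Irgm1, with a list median of -0.158. Without replicate 1, 4 were called higher in both tissues (Irf7, Rsad2, Hmox1 and Pdk4), and for the interaction Hmox1 was called above and Irgm1 and Tlr3 below, with a list median of -0.187. Pdk4 then rose in muscle by 0.78 (p 0.0261), and it was in this class in 9 of 15 fits that left out 1 more library. Ifit1 had log2 fold changes of 0.85 and 0.83, Pdk4, the kinase that holds pyruvate back from oxidation, 0.87 and 0.65, Acot11 0.58 and 0.13, and Tnfsf10 0.34 and 0.26. Tnfrsf11a had 0.74 and 0.54, and Tlr3, the receptor for double-stranded RNA, 0.44 and -0.15. Of 9 named in muscle 6 were tested and 0 were called for the interaction, among them Irs2 at -0.65, Gab1 at -0.17, Slc2a3 at -0.32, Lpl at 0.62 and Pdk4 at -0.24, with a list median of -0.281, and without replicate 1 again 0, with -0.189. Lpl, which frees fatty acids from lipoproteins, read 2389, 884, 882 and 792 CPM in ERRα3SA muscle, so that its positive value rests on replicate 1. Angptl8, Gdf15, Oasl1, Shc2, Prkag3 and Fabp3 were not expressed enough in both tissues to be tested.

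Promoters of these genes were searched for the motif of ERRα and that of interferon response factors, from 250 bases before to 50 after each RefSeq start in GRCm38.p6, on both strands. The ERR core AAGGTCA was in 1550 of 32851 promoters (4.72%), the extended form TCAAGGTCA, which contains it, in 139 (0.423%), and GAAANNGAAA in 1131 (3.44%). Of 44 interferon-stimulated genes with a promoter, 20 had GAAANNGAAA. Of 65 respiratory chain genes 9 had AAGGTCA (13.8%) and 2 the extended form, and of 20 ERR target genes 3 had AAGGTCA. Among genes with an adjusted p under 0.05 without replicate 1, AAGGTCA was in 12 of 219 with the muscle effect above the liver effect (5.48%) and in 5 of 226 with it below (2.21%), against 353 of 9138 promoters of genes tested in both (3.86%). The extended form was in 1 of the 219, Atp5g3 (0.457%), and in 1 of the 226, Tpm3 (0.442%). Over genes tested in both it was in 29 of 9138 (0.317%), so its share did not differ by direction. The window of Atp5g3, a proton-channel subunit of ATP synthase, is shown for the extended motif, in capitals on the reverse strand 52 bases before the start (chr2:73911277-73911576, minus strand). That of Atp5k is shown for the core motif 24 bases after the start (chr5:108434350-108434649, minus strand). Without replicate 1 these genes had interactions of 0.88 and 1.76.
Atp5g3: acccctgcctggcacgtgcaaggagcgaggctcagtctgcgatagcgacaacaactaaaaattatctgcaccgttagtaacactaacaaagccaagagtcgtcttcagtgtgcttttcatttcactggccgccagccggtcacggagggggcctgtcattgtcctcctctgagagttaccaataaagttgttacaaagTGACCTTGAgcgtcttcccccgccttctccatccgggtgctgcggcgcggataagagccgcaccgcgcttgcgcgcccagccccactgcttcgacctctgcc
Atp5k: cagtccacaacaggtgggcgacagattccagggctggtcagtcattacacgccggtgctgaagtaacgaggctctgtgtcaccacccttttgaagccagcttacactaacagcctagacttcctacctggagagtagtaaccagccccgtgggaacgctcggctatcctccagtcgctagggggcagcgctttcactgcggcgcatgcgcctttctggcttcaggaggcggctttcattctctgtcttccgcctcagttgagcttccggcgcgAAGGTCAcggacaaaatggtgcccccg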

How the data were processed

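The authors made NEBNext Ultra libraries, sequenced them paired-end, aligned reads to mm10 with STAR and counted reads per gene with STAR; the counts they deposited were used as given. Strand setting and annotation release are not stated. The count table held 54532 genes with IDs, of which GENCODE M21 names 54409 with a symbol, and 16 sample columns, all used, with 0 columns lacking a sample. Library totals were 20481405 to 33412022.

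Genes were kept by edgeR's filterByExpr within each tissue (13339 in liver, 14081 in muscle, 11843 in both) and scaled by TMM. Each tissue was fitted on its own for its effect, and the 4 groups together for the interaction, with edgeR 4.0.16 quasi-likelihood tests and Benjamini-Hochberg adjustment over all genes tested (R 4.3.3, limma 3.58.1, DESeq2 1.42.0, Python 3.11.15). Changes are log2 fold changes; CPM values are counts scaled to the library total times the TMM factor. A gene was called at an unadjusted p under 0.05 and at least 1.2 fold. Genes named in the text followed a rule: Esrra; genes the study names; the 8 smallest interaction p-values in each direction and the 6 smallest in each class, with all libraries and without muscle ERRα3SA replicate 1, leaving out predicted genes; and examples from each list called for the interaction or in both tissues. AC149090.1, Esrrg, Ppargc1a, Atp5g3, Tpm3 and the members of the respiratory chain with a motif were chosen after their values were seen. Some genes the rule picks are not reported here.

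Alternatives were DESeq2, limma-voom with sample weights, no filter, other scalings, blocks, leaving out each library and, added after seeing the data, offsets for transcript length and GC (natural splines) and leaving out replicate 4 of both ERRα3SA groups. All were repeated without muscle ERRα3SA replicate 1. The lists were hepatocyte, myofibre, slow fibre, fast fibre, adipocyte, red blood cell, leukocyte, fibroblast and tendon, endothelial and Schwann cell markers; ERR and PGC-1 regulators, ERR targets, OXPHOS, mitochondrial genome proteins, citric acid cycle, fatty acid oxidation, import, interferon-stimulated, clock, glucocorticoid, PPAR, lipogenesis, immediate early, unfolded protein, NRF2 and ribosomal genes; and the genes the study names in liver and in muscle. The members and lists were chosen with earlier results of these data known. The fits were tested on simulated data, and promoters came from RefSeq with GRCm38.p6.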

Additional observations from a re-analysis of the deposited data

Results flagged for a closer look

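In each group of 4 samples, a value was singled out when its gap to the nearest other sample was larger, as a share of the range of the group, than Dixon's 95% critical value. Chance flags about 1 in 20 groups in this way. Of 388 groups tested, 45 were singled out (11.6%), of which 20 were muscle ERRα3SA replicate 1, 5 were muscle ERRα3SA replicate 4 and 4 were liver ERRα3SA replicate 4. Part of the genes had been picked by their p-values without muscle ERRα3SA replicate 1, which favours genes where it opposes its group, so its number is partly set by that choice. No explanation was tested for them.

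In muscle ERRα3SA replicate 1 the values far from the rest of the group were 16984 genes detected and 19.3% mitochondrial reads. Among genes (CPM) they were Lpl 2390, Limd2 8.69, Rpl12 136, Krt19 0.724, Tmem37 3.56, Rpl22l1 3.26, Cox11 2.54, mt-Atp8 26.2, Exoc4 120.0, Zfp979 7.42, Zfr 132, Tpr 297, Ckap5 102, Ccar1 82.6 and Nmi 17.1. Among summed lists they were endothelial markers at 504, mitochondrial genome proteins at 250000 and NRF2 targets at 2630. In muscle ERRα3SA replicate 4 they were Hmox1 68.6, Ly6a 61.0, Mt1 141, leukocyte markers at 300.0 and immediate early and heat shock genes at 2190. In liver ERRα3SA replicate 4 they were 20481405 total counts, Mt1 40.9, slow fibre markers at 508 and OXPHOS genes at 9170.

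In other ERRα3SA livers, replicate 3 had Tnfsf10 at 6.5, myofibre markers at 14.9 and fast fibre markers at 11.4, and replicate 1 had Exoc4 at 26.7 and ERR and PGC-1 regulators at 334. In wild-type liver, replicate 1 had myofibre markers at 13.9, fast fibre markers at 12.6 and ERR targets at 5750, replicate 3 had mt-Tc at 17.3, Limd2 at 19.3 and Mt1 at 2.14, and replicate 4 had Cd9 at 19.1. In wild-type muscle they were Oasl2 at 4.12 in replicate 3, Crip3 at 4.90 in replicate 4, and H2afj at 5.29 and immediate early and heat shock genes at 886 in replicate 2.

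The effect in muscle differed from that in liver, by the interaction at an adjusted p under 0.05 (edgeR, Benjamini-Hochberg) without muscle ERRα3SA replicate 1, for 576 genes. Those named in the report with the muscle effect above the liver effect included Esrra 0.81, mt-Tl2 2.90, Ndufa1 1.27, Rpl39 0.98, Naa38 1.19, Rps27a 0.65, Stub1 0.54, Rpl11 0.90, Abracl 1.89, Limd2 0.75, Rpl12 0.57, Got1 0.99, H2afj 1.17, Tmem37 1.12, mt-Te 1.74, Rpl22l1 2.16, Pabpn1 1.52, Cox11 1.13 and G6pc3 0.91 on the log2 scale. Atp5g3, Atp5k and Hspe1 passed in this direction too. Those with the muscle effect below the liver effect included Itih2 -1.24, Gbp6 -1.92, Gbp10 -2.0, Cxadr -1.01, mt-Tc -1.08, Pmp22 -1.02, Zfp383 -0.81, Kank1 -0.47, Serping1 -0.73, mt-Atp8 -2.10, Exoc4 -0.56, Zfp979 -2.10, Zfr -0.65, Tpr -0.73, Ckap5 -0.72, Ccar1 -0.67, Akap13 -0.64, Nmi -0.91 and Agtpbp1 -0.67. With all 16 libraries none of them passed. Without replicate 1 and with length and GC offsets 60 genes passed, of which 49 were among the 576.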

How the results depend on the processing

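Muscle ERRα3SA replicate 1 decides most counts. The cause of each change given here was not tested, except where fewer samples or a wider set of genes make it plain. Transcript length and GC go with the effect in both tissues. Liver and muscle share no samples, 4 samples a group leave small effects undetected, and the smallest library, of 20481405 reads, limits genes of few counts. Alternatives repeated without muscle ERRα3SA replicate 1, the length and GC offsets and leaving out both replicates 4 were chosen after seeing the data.

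With all 16 libraries, the 0 interaction genes at an adjusted p under 0.05 became 31 with DESeq2, 1232 with limma-voom, 1 with length and GC offsets (mt-Tc) and 4 without replicate 4 of both ERRα3SA groups (Cxadr, Ndufa1, Ndufs6 and mt-Tl2). With no filter on low counts, which tests more genes, the 647 interaction genes by p and fold became 1271, the 22 genes alike 47, the 17 opposite 30, the 651 called in liver 1050 and the 639 in muscle 1071. With limma-voom the interaction had 2690 by p and fold, 61 genes were alike, 106 opposite and 2799 called in muscle. Fitting the 4 groups together, over the 11843 genes tested in both, gave 346 called in liver (200 higher and 146 lower) and 782 in muscle (513 and 269), where each tissue on its own gave 289 and 258 in liver and 339 and 149 in muscle over the same genes. Length and GC offsets moved the split of the interaction from 380 above and 267 below to 358 and 371.

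Leaving out 1 library at a time, the adjusted interaction genes were 0 to 576: 1 without liver wild-type replicate 3, 3 without liver ERRα3SA replicate 1, 1 without liver ERRα3SA replicate 4 and 576 without muscle ERRα3SA replicate 1. Those by p and fold were 502 to 2493, the most without muscle ERRα3SA replicate 1. Genes alike were 10 to 45: 10 without muscle wild-type replicate 1, 14 without its replicate 3, 13 without its replicate 4, and 45 without muscle ERRα3SA replicate 1 and again without replicate 3. Genes opposite were 10 to 88: 10 without liver wild-type replicate 2, 30 without liver ERRα3SA replicate 1 and 88 without muscle ERRα3SA replicate 1. Called in liver were 507 to 892. Called in muscle were 378 to 2506: 378 without wild-type replicate 3, 397 without wild-type replicate 4 and 2506 without ERRα3SA replicate 1.

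Without muscle ERRα3SA replicate 1, the 576 adjusted genes became 1176 with DESeq2 (573 shared), 1446 with limma-voom, 231 with no filter, 60 with length and GC offsets and 885 without both replicates 4. With length and GC offsets the 2493 by p and fold became 1652, split into 577 above and 1075 below, the 88 opposite became 35 and the 2506 called in muscle 1647. The 45 alike became 88 with no filter. TMM within each tissue split the interaction into 1456 above and 1078 below, against 1182 and 1311. Leaving out 1 more library, the adjusted genes were 191 to 632: 270 without liver wild-type replicate 1, 376 without its replicate 2, 272 without its replicate 4, 191 without muscle wild-type replicate 3, 271 without its replicate 4 and 278 without muscle ERRα3SA replicate 2. By p and fold they were 2127 to 2698, and called in muscle 1896 to 2941. Genes alike were 24 to 74: 28 without muscle wild-type replicate 4, 74 without muscle ERRα3SA replicate 3 and 24 without its replicate 4. Genes opposite were 63 to 135, the most without liver ERRα3SA replicate 1.

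Of the genes called in both tissues with all 16 libraries, only Gbp6, mt-Tl2 and AC149090.1 kept their class in each of 16 fits that left out 1 library. The tally of named genes takes in many far from the threshold. Of 3065 values for 114 genes with all libraries, 2807 kept their side of the threshold, 198 lost it, 45 gained it, 15 moved and 0 reversed. Without muscle ERRα3SA replicate 1, of 2950 values 2818 kept it, 74 lost it, 39 gained it, 16 moved and 3 reversed. Hmox1 reversed with limma-voom (-0.039) and without both replicates 4 (-0.28), and ran from -0.26 without muscle replicate 4 to 2.57 without replicate 3.

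The labels do not tie replicate numbers to mice, and correlations of deviations from the group means did not settle it. For wild-type liver with muscle, same-numbered libraries had 0.0175 to 0.0728, against -0.0682 to 0.0246 for different numbers. For ERRα3SA liver with muscle, they had -0.128 to 0.104, against -0.165 to 0.142. Between genotypes, same-numbered libraries had -0.0764 to 0.286 in liver and -0.262 to 0.0402 in muscle. With the replicate block by number, the interaction had 0 adjusted genes and 576 by p and fold, 12 genes were alike, 14 opposite, 656 called in liver and 334 in muscle. The replicate block by mouse takes the liver and muscle of the same genotype and number as 1 mouse, which the labels do not state. With it the interaction had 0 adjusted genes and 523 by p and fold. Without muscle ERRα3SA replicate 1, the replicate block by number gave 697 adjusted genes, 2641 by p and fold, 28 alike, 101 opposite and 2454 called in muscle. The block by mouse, on the same assumption, gave 375 adjusted genes, 299 of them among the 576, and 2567 by p and fold.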

Other observations

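Myofibre transcripts were present at low level in 2 livers, wild-type replicate 1 (13.9 CPM summed over 10 markers, with Acta1 at 5.08) and ERRα3SA replicate 3 (14.9, with Acta1 at 4.57), against at most 1.45 in the other 6. Each genotype held 1 such liver. The muscle ERRα3SA replicates 2 and 3 were the closest pair of libraries, at 6.3 times the differences that counting error alone gives (chi-square over its degrees of freedom), and no pair was identical.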
